A study of Homo sapiens with 8 samples.

Results

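Cathepsins and legumain are the peptidases that break down proteins inside the lysosome. The 10 genes described here are CTSA, CTSB, CTSC, CTSD, CTSH, CTSK, CTSL, CTSO, CTSZ and LGMN, chosen by symbol from the 62700 rows of a table of gene counts, and all 10 passed the filter on low counts that left 17535 genes. The cells were THP-1, a human monocytic leukaemia line, differentiated to macrophages by 72 h of the phorbol ester PMA at 50 ng/mL and loaded for 48 h with acetylated low-density lipoprotein, which turns macrophages into cholesterol-filled foam cells. In 4 libraries the cells had vehicle (DMSO, below 0.1% by volume) and in 4 they had 0.5 µM auranofin (AF), a gold compound that inhibits thioredoxin reductase. The sample protocol starts the drug 24 h ahead of the lipid load and keeps it on, while the series' design text puts it after the load. All libraries come from this cell line, and nothing in the labels says that they are separate cultures. The library names share 4 stems, each held by 2 libraries of a group (replicates 1 and 2, and 3 and 4), and the labels do not say what a stem stands for, so n = 4 may count fewer independent units. The spread that the p-values rest on is that of these 8 libraries alone and may be technical.

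Lysosomal proteases are made as inactive precursors in the endoplasmic reticulum, tagged with mannose 6-phosphate in the Golgi and activated in acid compartments. Most cathepsins are cysteine proteases of the papain family (CTSB, CTSC, CTSH, CTSK, CTSL, CTSO and CTSZ), CTSD is an aspartic protease, CTSA is a serine carboxypeptidase, and LGMN encodes legumain, which cuts after asparagine. In macrophages they degrade engulfed material, including the protein of lipoproteins, and trim antigens and the invariant chain for MHC class II. Many lysosomal genes carry an E-box that TFEB and related MiT/TFE transcription factors bind.

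RefSeq promoters (GRCh38.p14, 250 bases before to 50 after a start) were matched for 6 of the 10 genes: CTSA, CTSC, CTSD, CTSH, CTSL and CTSZ. The E-box letters CACGTG, the same on both strands, lay in 2 of these 6, CTSA and CTSD, against 7.26% of 35116 promoters of all genes and 9.94% of the 11303 matched to tested genes. CTSA held them at -42 to -37 and again at -25 to -20 from its start. The copy at -25 to -20 lay within the longer palindrome TCACGTGA. This palindrome lay in 0.98% of all promoters and 1.88% of those of tested genes. CTSD held them once, at -47 to -42. The 2 windows are shown because they carry the element known for lysosomal genes, with CACGTG in capitals, 5′ to 3′ along each gene. They lie at chr20:45891289-45891318 (plus strand, CTSA) and chr11:1763957-1763986 (minus strand, CTSD).
CTSA: ctgtCACGTGgcgccggagttCACGTGact
CTSD: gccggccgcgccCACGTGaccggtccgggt

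The letters TGACNNNGC, the core of the antioxidant response element bound by NRF2, were searched on both strands after the promoters had been looked at. They lay in 5 of the 6 promoters (all but CTSH), against 13.35% of all promoters and 15.17% of those of tested genes. GC content was 58.0% (CTSC) to 81.0% (CTSZ) in the 6. The median was 65.0% over tested genes and 58.67% over all promoters. All of the 6 but CTSC lay above the median of tested genes. The part of GC content in the matches was not tested. Among the genes with a match, CTSD and CTSL rose, and CTSA, CTSC and CTSZ were not called. CTSB and LGMN, which also rose, had no promoter matched. The windows of CTSC, CTSD and CTSL are shown to set beside each other a gene that was not called and a pair that rose, with the match in capitals. It reads TGAC first in CTSC (chr11:88337783-88337812, minus strand) and CTSD (chr11:1764104-1764133, minus strand), and GC first, on the reverse strand, in CTSL (chr9:87726085-87726114, plus strand). CTSD also held a match on the reverse strand at +5 to +13, outside the window shown. A match of letters is a description and shows no binding.
CTSC: ctgctgctcagTGACCCCGCccacgggttt
CTSD: ctgggccgggcTGACCCCGCgggcgcgagc
CTSL: aggttttagaaGCAGAGTCAggcgaagctg

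Libraries held 19336073 to 32325981 counts. AF replicate 1 stood apart, with 58.4% of its counts in protein-coding genes against 89.7% to 90.1% in the other 7, and its composition factor (TMM) was 0.679 against 1.0448 to 1.078. Values below are CPM, library-scaled counts that use these factors, unless given per length. Over all tested genes 7.62% passed the test described below as higher and 7.81% as lower, the shares to set beside each marker list. The macrophage markers were present: 9 listed genes summed to 4067 to 4777 CPM in DMSO and 3611 to 4099 in AF. Of these, 3 (among them ITGAM and ITGAX) passed the test as higher and 3 (among them LYZ and MRC1) as lower. With library totals alone 0 were higher and 2 lower, and without AF replicate 1 there were 2 higher and 3 lower. Granulocyte progenitor markers (MPO, ELANE, PRTN3, AZU1, CEBPE) summed to 490 to 620 CPM in DMSO and 306.6 to 479 in AF, with 2 of 5 lower (PRTN3 and ELANE). The count was 1 without DMSO replicate 2 or 3, 3 without DMSO replicate 4 or AF replicate 1 or 2, and 4 with the replicate block. The osteoclast markers summed to 39.4 to 44.6 CPM in DMSO and 37.3 to 42.3 in AF, with CALCR and OCSTAMP at 0 in each library. Of their 5 tested genes TNFRSF11A was lower (-1.32, adjusted p = 0.000134) and DCSTAMP higher (0.61, adjusted p = 0.0479), the latter call lost without DMSO replicate 2, 3 or 4 or AF replicate 3 or 4. Among markers of other tissues EPCAM was at 0 in each library, CD3E was at 0.0426 CPM or less, and COL1A1 averaged under 1 CPM in both groups. PECAM1, which monocytes also make, stood at 310.6 to 320.8 CPM in DMSO and 295.9 to 323 in AF. In bulk RNA, fewer cells of a type and less RNA per cell cannot be told apart, and the part of these markers in the results was not tested.

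Cathepsin transcripts were among the most abundant of the cells. By mean CPM, CTSB ranked 24th of 17535 genes, CTSD 42nd, CTSL 76th and CTSZ 79th, whereas CTSO ranked 5204th, LGMN 6209th and CTSK 10766th. Per kilobase of exon in DMSO, CTSZ stood at 516 ± 22.4 CPM per kilobase (mean ± SD, n = 4 here and below) and CTSD at 468 ± 21.8, and these neighbours overlapped. CTSL followed at 402 ± 5.11 and CTSB at 330 ± 11.9, each clear of the next. A wide step led to CTSH (79.0 ± 3.59), CTSA (52.7 ± 3.70) and CTSC (39.0 ± 1.64), and a further one to CTSO (11.4 ± 1.11), LGMN (6.01 ± 0.197) and CTSK (3.15 ± 0.409), with no overlap between neighbours from CTSL down. With auranofin CTSD came to the top at 629 ± 66.5, CTSL (501 ± 11.99) and CTSZ (500.4 ± 16.0) overlapped, and CTSB stood at 398 ± 13.8, while the lower 6 kept their order. The order at the top depends on the length used: with the longest transcript (3875 bases for CTSB, against 7428 for all its exons) CTSB (633 CPM per kilobase) came ahead of CTSL in DMSO and (763) ahead of CTSZ and CTSL in AF, and LGMN passed CTSO in AF.

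**Figure D1:**
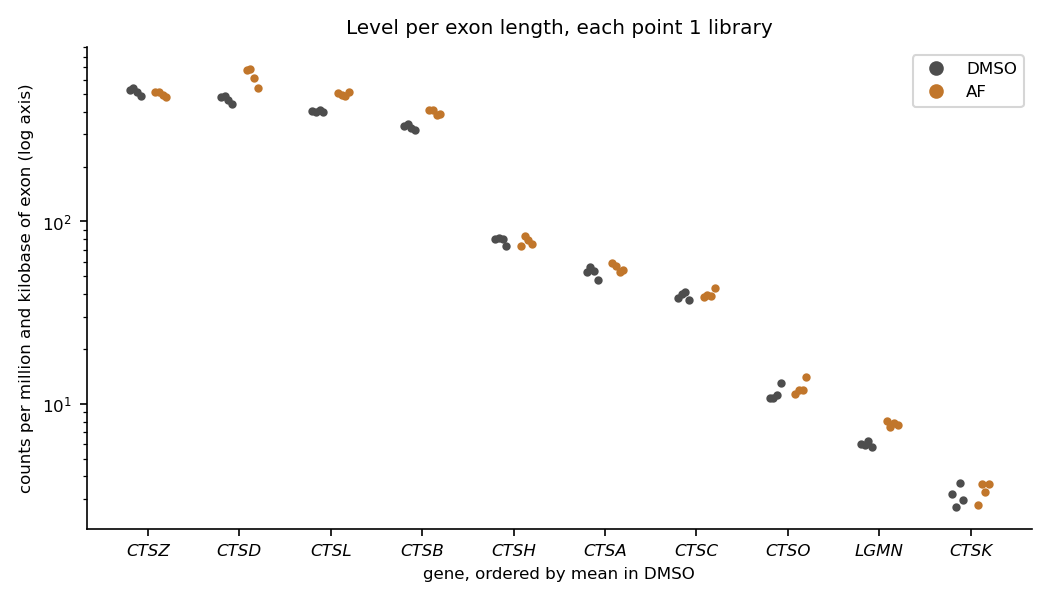
Level of each gene per kilobase of its exons (y, log axis, CPM per kilobase) for the 10 genes (x, ordered by their DMSO mean), each point 1 library, grey for DMSO and orange for AF. CTSZ, CTSD, CTSL and CTSB form an upper group between 317 and 686.5, and CTSK lies lowest at 2.71 to 3.68.

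Auranofin raised 4 of the 10 genes, CTSB, CTSD, CTSL and LGMN, by 20.6% to 34.3%, and lowered none at an adjusted p under 0.05 (edgeR's quasi-likelihood test; "called" below). In all, 15.4% of tested genes were called, 7.62% higher and 7.81% lower. Each of the 4 had AF values that did not overlap its DMSO values, as did 19.5% of tested genes, and the other 6 members overlapped. The unadjusted p was under 0.05 for the same 4 members and no other, and the count of lower members was 0 under each alternative tried, DESeq2 included. The members' median log2 fold change was 0.10, against 0.005 over all genes tested. Among the 1862 genes whose mean reached 100 CPM, 12.5% were higher, and 7 members belong to this class, of which CTSB, CTSD and CTSL were higher.

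**Figure D2:**
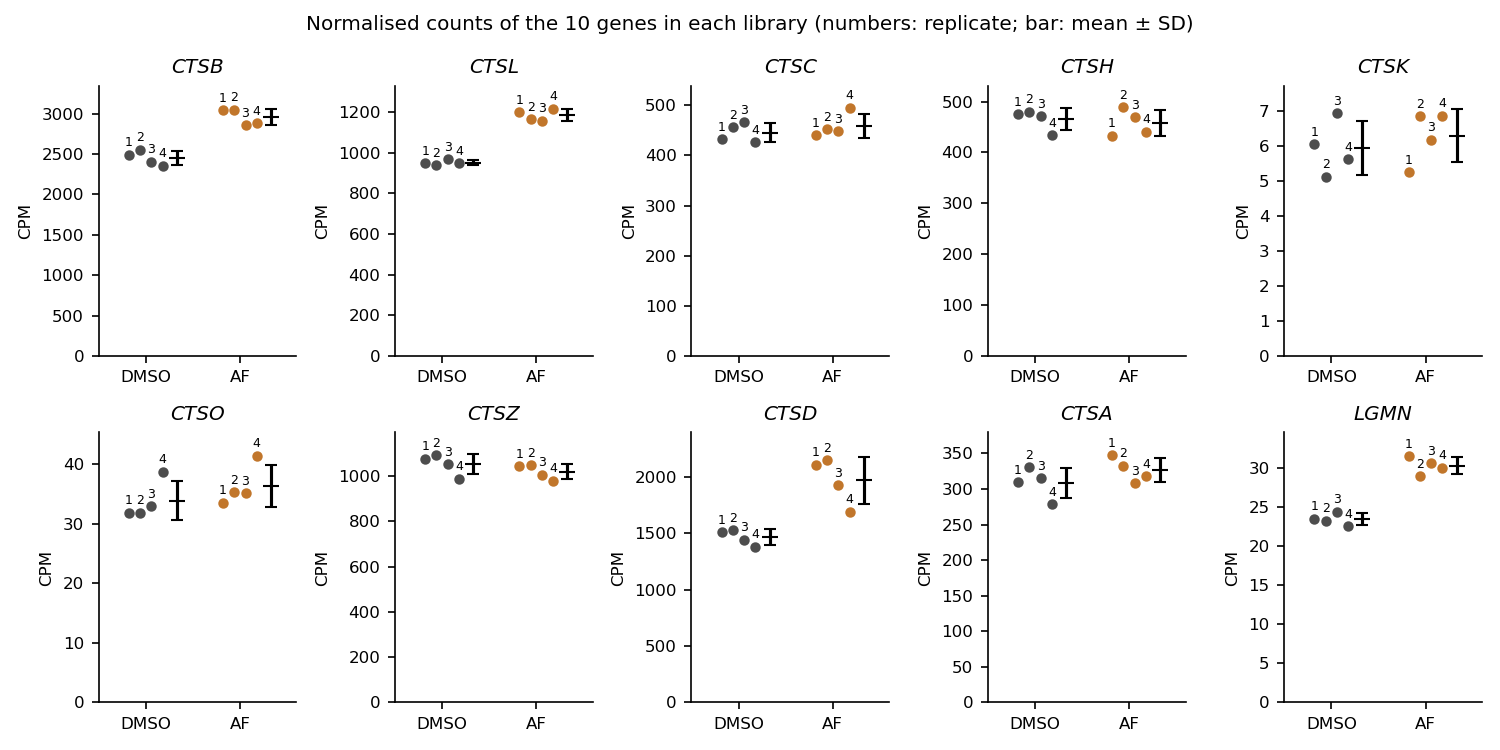
Normalised counts (y, CPM, from 0) of each gene in the 4 DMSO (grey) and 4 AF (orange) libraries, numbered by replicate, with mean ± SD beside each group. The AF points lie wholly above the DMSO points for CTSB, CTSL, CTSD and LGMN, and the groups overlap for the other 6.

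CTSD, the aspartic protease that cuts prosaposin and other lysosomal precursors, had the largest log2 fold change of the 10 with all 8 libraries, though LGMN was ahead without AF replicate 2 (0.392 against 0.382) and with libraries 1 and 4 alone (0.413 against 0.389). Its CPM was 1510, 1527, 1441 and 1379 in DMSO replicates 1 to 4 and 2105, 2146, 1925 and 1690 in AF replicates 1 to 4. All AF values were above all DMSO values, and AF replicate 4 was the lowest of its group. The log2 fold change was 0.43 ± 0.09 (SE; adjusted p = 0.00397), and 0.49 without AF replicate 4. On GRCh38, CTSD (ENSG00000117984.13) spans chromosome 11 from 1752752 to 1764573 on the minus strand. Another annotated gene covers 41.7% of its exon bases on the same strand and a further gene 15.8% on the other, so reads may be divided among them and the level of CTSD is uncertain.

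CTSL, an endopeptidase of the papain family that works on the invariant chain and on engulfed proteins, stood at 950.5, 940.2, 968.8 and 948.5 CPM in the DMSO libraries. In the AF libraries it stood at 1201, 1165, 1158 and 1217 CPM. Both groups were tight, with SDs of 12.1 and 28.4 CPM around means of 952 and 1185. The log2 fold change was 0.32 ± 0.07 (SE; adjusted p = 0.00462). Reads of its near copies were few: 8 CTSL pseudogenes had 0 to 3 counts in any library, beside 19744 to 39288 for CTSL. CTSL (ENSG00000135047.14) spans chromosome 9 from 87725519 to 87731393.

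CTSB, the most abundant member by counts, encodes a papain-type protease that also removes dipeptides from chain ends. It stood at 2491, 2554, 2404 and 2356 CPM in the DMSO libraries and at 3040, 3051, 2858 and 2879 in the AF libraries. The lowest AF library, replicate 3, lay above the highest DMSO library, replicate 2. The log2 fold change was 0.27 ± 0.07 (SE; adjusted p = 0.0219), the smallest of the 4. CTSB no longer passed when DMSO replicate 1 (adjusted p = 0.0574), 2 (0.0598), 3 (0.0739) or 4 (0.0563) or AF replicate 2 (0.0635) was left out, and with libraries of a name stem summed (0.0609), while its log2 fold change stayed between 0.25 and 0.29 in these fits. CTSB (ENSG00000164733.20) spans chromosome 8 from 11842524 to 11869448 with no exon overlapped by another gene.

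LGMN, whose product matures other cathepsins and cuts antigens, had 469 to 977 counts per library. Its CPM was 23.5, 23.2, 24.4 and 22.5 in DMSO and 31.5, 28.97, 30.6 and 30.02 in AF. The groups did not overlap, and their SDs were 0.768 and 1.07 CPM. The log2 fold change was 0.37 ± 0.08 (SE; adjusted p = 0.00878). LGMN (ENSG00000100600.14) spans chromosome 14 from 92703807 to 92748702, with no exon overlap in GENCODE 29.

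The remaining papain-family genes were not called. CTSZ, a carboxypeptidase, stood at 989 to 1093 CPM in DMSO and 979.9 to 1049 in AF, a log2 fold change of -0.05 with a 95% interval of -0.19 to 0.10. CTSH, an aminopeptidase, stood at 434 to 480.1 CPM in DMSO and 433 to 488.5 in AF (-0.02, interval -0.17 to 0.12). The intervals of both genes lie below the fitted changes of CTSB, CTSL, CTSD and LGMN, as do those of CTSC and CTSA. The interval of CTSH, up to 0.12, still overlaps that of CTSB, which starts at 0.11. The intervals of CTSC, up to 0.184, and CTSA, up to 0.229, overlap those of CTSB and CTSL, the latter from 0.178. That of CTSA also overlaps the interval of LGMN, from 0.190. CTSC, which activates granule serine proteases by removing dipeptides, stood at 426 to 466 CPM in DMSO and 440 to 495 in AF (0.04, interval -0.10 to 0.18). CTSO, a little studied member, stood at 31.8 to 38.7 CPM in DMSO and 33.5 to 41.4 in AF (0.10, interval -0.10 to 0.31). That interval takes in the fitted change of CTSB, 0.27. CTSK, the collagen-degrading protease of osteoclasts, had only 99 to 231 counts per library, and its interval of -0.19 to 0.37 takes in the changes seen in CTSB and CTSL.

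CTSA, the carboxypeptidase that shields the sialidase NEU1 and the galactosidase GLB1 in a complex, was not called either. It stood at 309.6, 330.2, 315.3 and 278.6 CPM in DMSO and 347.8, 332.6, 308.1 and 318 in AF, a log2 fold change of 0.08 with an interval of -0.06 to 0.23. AF replicate 3 lay below 3 of the DMSO libraries. Genes on the other strand cover 28.5% of CTSA's exon bases, among them PLTP, a phospholipid transfer protein gene with 338 to 606 counts per library, beside 5799 to 11219 for CTSA. Both promoters that hold CACGTG belong to genes with different outcomes, CTSD called higher and CTSA not called.

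**Figure D3:**
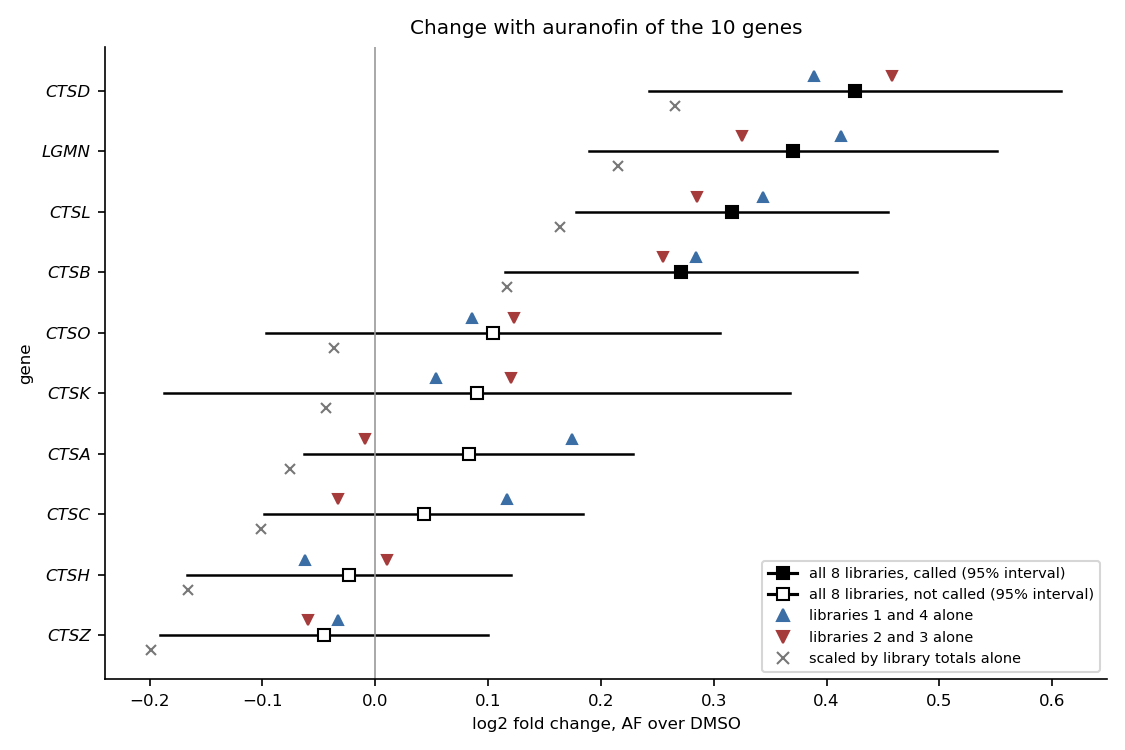
Log2 fold change of each gene with auranofin (x) with its 95% interval, filled squares for called genes, and values from parts of the libraries or another scaling. Triangles show libraries 1 and 4 alone and 2 and 3 alone, and crosses show scaling by library totals, under which CTSA, CTSC, CTSK and CTSO fall below 0.

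Replicates 1 and 4 of both groups were also fitted apart from replicates 2 and 3, a division taken from earlier work on the counts that no label records. By chi-square per degree of freedom it held in DMSO, where replicate 1 was nearest to 4 (4.95) and 2 to 3 (2.95). In AF it did not, since replicate 4 was nearer to 3 (11.97) and 2 (20.2) than to 1 (604.7), and replicate 1 stood alone. The 4 raised genes had like sizes in both: 0.39 and 0.46 for CTSD, 0.34 and 0.29 for CTSL, 0.28 and 0.26 for CTSB, and 0.41 and 0.33 for LGMN. Both parts come from the 8 libraries that gave the calls, so this likeness is a description and adds no separate support. With libraries 1 and 4 alone none of them was called (adjusted p = 0.0956 to 0.304), a fit that holds AF replicate 1, and with libraries 2 and 3 alone all 4 were. CTSA had 0.17 and -0.009, CTSC 0.12 and -0.03, and CTSH -0.06 and 0.01 in the first and second division, so their sign differed, and whether these differences exceed chance was not tested.

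Scaling bears on changes of this size. With library totals alone, which the composition of AF replicate 1 enters, the median of all genes moved to -0.145 and 0 members were called. In that fit CTSD had a log2 fold change of 0.27, LGMN 0.21, CTSL 0.16 and CTSB 0.12. With library totals and AF replicate 1 left out, CTSD had 0.37, LGMN 0.33, CTSL 0.29 and CTSB 0.24, and all 4 were called (adjusted p = 0.00121 to 0.0115). With protein-coding genes alone and their totals 4 members were called as well. These last 2 fits were added after the data had been seen.

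Ratios of counts within a library need no scaling, and CTSZ, chosen after its values were seen, served as the divisor. CTSD over CTSZ was 1.40, 1.40, 1.37 and 1.39 in DMSO and 2.02, 2.047, 1.91 and 1.73 in AF. CTSB over CTSZ went from 2.33 ± 0.0407 to 2.90 ± 0.0420, CTSL over CTSZ from 0.906 ± 0.0435 to 1.16 ± 0.0555 and LGMN over CTSZ from 0.0223 ± 0.000880 to 0.0297 ± 0.00141. In each ratio the 4 AF libraries, AF replicate 1 included, lay above the 4 DMSO libraries. CTSZ has the lowest log2 fold change of the 10, a choice of divisor that favours higher ratios in AF. Ratios to other members are not given here. These ratios are given as unscaled values that support nothing further.

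The 10 genes summed to 6878 to 7441 CPM in DMSO and 8099 to 8755 in AF. As a share of protein-coding counts they took 0.849% ± 0.0238 in DMSO and 0.984% ± 0.0335 in AF, again with no overlap. As a share of all counts the order broke at AF replicate 1, with 0.589% there, while DMSO libraries had 0.7405% to 0.783% and the remaining AF libraries 0.847% to 0.913%. Within the sum, CTSD went from 20.3% ± 0.318 to 23.2% ± 1.66, and CTSB from 34.0% ± 0.391 to 35.0% ± 0.382. CTSZ gave up the most, from 14.6% ± 0.158 to 12.1% ± 0.0998, and CTSH went from 6.46% ± 0.111 to 5.43% ± 0.307. CTSC, at 6.19% ± 0.234 and 5.44% ± 0.472, overlapped between groups only through AF replicate 4 (6.11%).

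**Figure D4:**
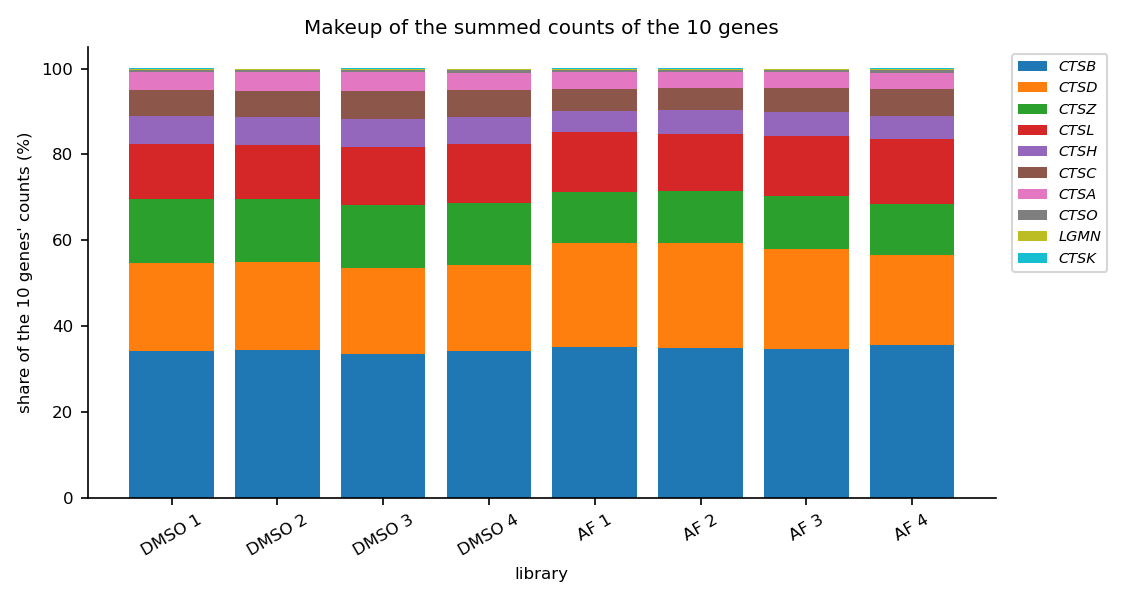
Share of each gene in the summed counts of the 10 (y, %) for each library (x), stacked in order of their DMSO means. The CTSD band is wider in each AF library (20.9% to 24.5%) than in each DMSO library (20.1% to 20.7%), and the CTSZ band is narrower.

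The genes whose pattern over the 8 libraries was most like that of CTSD, by Pearson's r of log2 CPM among the 10987 genes that averaged 5 CPM or more, were ADGRE5 (r = 0.993), IQSEC2 (0.992) and PLAUR (0.988). ADGRE5 encodes the adhesion receptor CD97, IQSEC2 an exchange factor for ARF GTPases and PLAUR the urokinase receptor. The libraries form 2 treatment groups, so r mostly reflects a difference between groups, and no test is given. PLAUR stood at 138.5, 141.1, 134.1 and 130.1 CPM in DMSO and 192.3, 198.7, 187 and 166.5 in AF, with AF replicate 4 lowest of its group as for CTSD.

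Around these genes, 6 lists were described, chosen like the members with earlier results known. Among other cathepsins, 3 of 4 were tested, 1 rose and 1 fell, beside 7.62% higher and 7.81% lower over all genes. CTSV, a close relative of CTSL, stood at 9.89, 11.7, 10.2 and 11.7 CPM in DMSO and at 7.43, 7.23, 6.77 and 7.18 in AF, a log2 fold change of -0.60 ± 0.10 (SE; adjusted p = 0.000779). It fell while CTSL rose, with no overlap between groups in either gene. CTSF, another papain-family member, rose from 11.95 ± 0.600 to 15.6 ± 1.52 CPM (0.39 ± 0.09, adjusted p = 0.0113). CTSW, a cathepsin of cytotoxic lymphocytes named after its values were seen, had -0.31 ± 0.17 (adjusted p = 0.237), and CTSE was too low to be tested.

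Of 8 other lysosomal peptidases 4 rose and none fell, with a median log2 fold change of 0.22, against 0.005 over all genes and 7.62% of all genes higher (4 rose without AF replicate 1 as well, and 0 with library totals alone). SCPEP1, a serine carboxypeptidase gene, rose from 268 ± 9.42 to 349.9 ± 14.9 CPM (0.38 ± 0.06). CPQ, a peptidase that acts on dipeptides, rose by 0.32 ± 0.05, PRCP, which removes a residue after proline, by 0.22 ± 0.05, and CPVL, a carboxypeptidase of macrophages named after its values were seen, by 0.22 ± 0.06. The tripeptidyl peptidase gene TPP1 stood at 945 ± 26.9 and 1027 ± 30.2 CPM and was not called (0.12 ± 0.07, adjusted p = 0.242), although its groups did not overlap; it too is named after its values were seen.

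Of 8 inhibitors of cathepsins 5 were tested, 1 rose, 0 fell and the median was 0.01, beside 7.62% higher and 7.81% lower over all genes. CSTB, the cytosolic stefin B, stood at 260, 248.5, 276.3 and 246 CPM in DMSO and at 306, 314.3, 303.1 and 276.7 in AF, with the groups just apart. Its log2 fold change was 0.22 ± 0.06 (adjusted p = 0.0302), which did not pass when DMSO replicate 1 (adjusted p = 0.0613), 2 (0.0961) or 4 (0.0633) or AF replicate 2 (0.0774) or 3 (0.0801) was left out, or with name stems summed (0.0706). CST3, the secreted cystatin C, named after its values were seen, went the other way, at 279 ± 20.1 and 233 ± 35.1 CPM (-0.26 ± 0.09, adjusted p = 0.0765). Without AF replicate 1 the list had 1 gene higher and 1 lower.

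Sorting genes were mostly not called. Of 12 genes for mannose 6-phosphate tagging, its receptors and adaptors, 0 rose and 1 fell, with a median of -0.06, beside 7.62% higher and 7.81% lower over all genes, so the count does not set the list apart. SORL1, a sortilin-family receptor, stood at 233.4, 237.8, 237 and 241.6 CPM in DMSO and at 225, 206.2, 207.9 and 202.3 in AF (-0.18 ± 0.05, adjusted p = 0.0410). It did not pass when any single library but AF replicate 1 was left out (adjusted p = 0.0562 to 0.12) and with no filter on low counts (0.115), a block by library name suffix (0.0592) or name stems summed (0.108).

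Partners and substrates moved in both directions: of 7 genes 6 were tested, 1 rose (2 with DESeq2, 3 with the replicate block) and 2 fell, beside 7.62% higher and 7.81% lower over all genes. GLB1, the galactosidase of the CTSA complex, rose from 191 ± 2.39 to 229 ± 8.49 CPM (0.26 ± 0.05, adjusted p = 0.0032). CD74, the invariant chain that CTSL and legumain help to cut, fell from 229 ± 11.9 to 126 ± 15.1 CPM (-0.86 ± 0.08, adjusted p = 6.37e-06). TLR7, an endosomal receptor that proteases must cleave to activate, fell from 19.2 ± 2.22 to 7.83 ± 1.22 CPM (-1.29 ± 0.12, adjusted p = 7.84e-06). CD74 and TLR7 were also called with library totals alone.

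Of 8 regulators of lysosomal genes 2 rose and none fell, with a median of 0.10 (2 without AF replicate 1, 4 with no filter on low counts, 0 with library totals alone), beside 7.62% and 7.81% of all genes. With DESeq2 3 were higher and 1 lower, with the replicate block 4 and 1, and with protein-coding genes alone 3 and 1. The MiT/TFE factor TFE3 stood at 59.3, 59.0, 57.3 and 56.8 CPM in DMSO and at 75.95, 80.9, 73.3 and 61.7 in AF (0.33 ± 0.07, adjusted p = 0.00673). AF replicate 4 was again the lowest of its group. TFEC, a relative limited mainly to myeloid cells, rose by 0.27 ± 0.06 (adjusted p = 0.00798), while TFEB itself, named after its values were seen, had -0.17 ± 0.08 (adjusted p = 0.192).

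**Figure D5:**
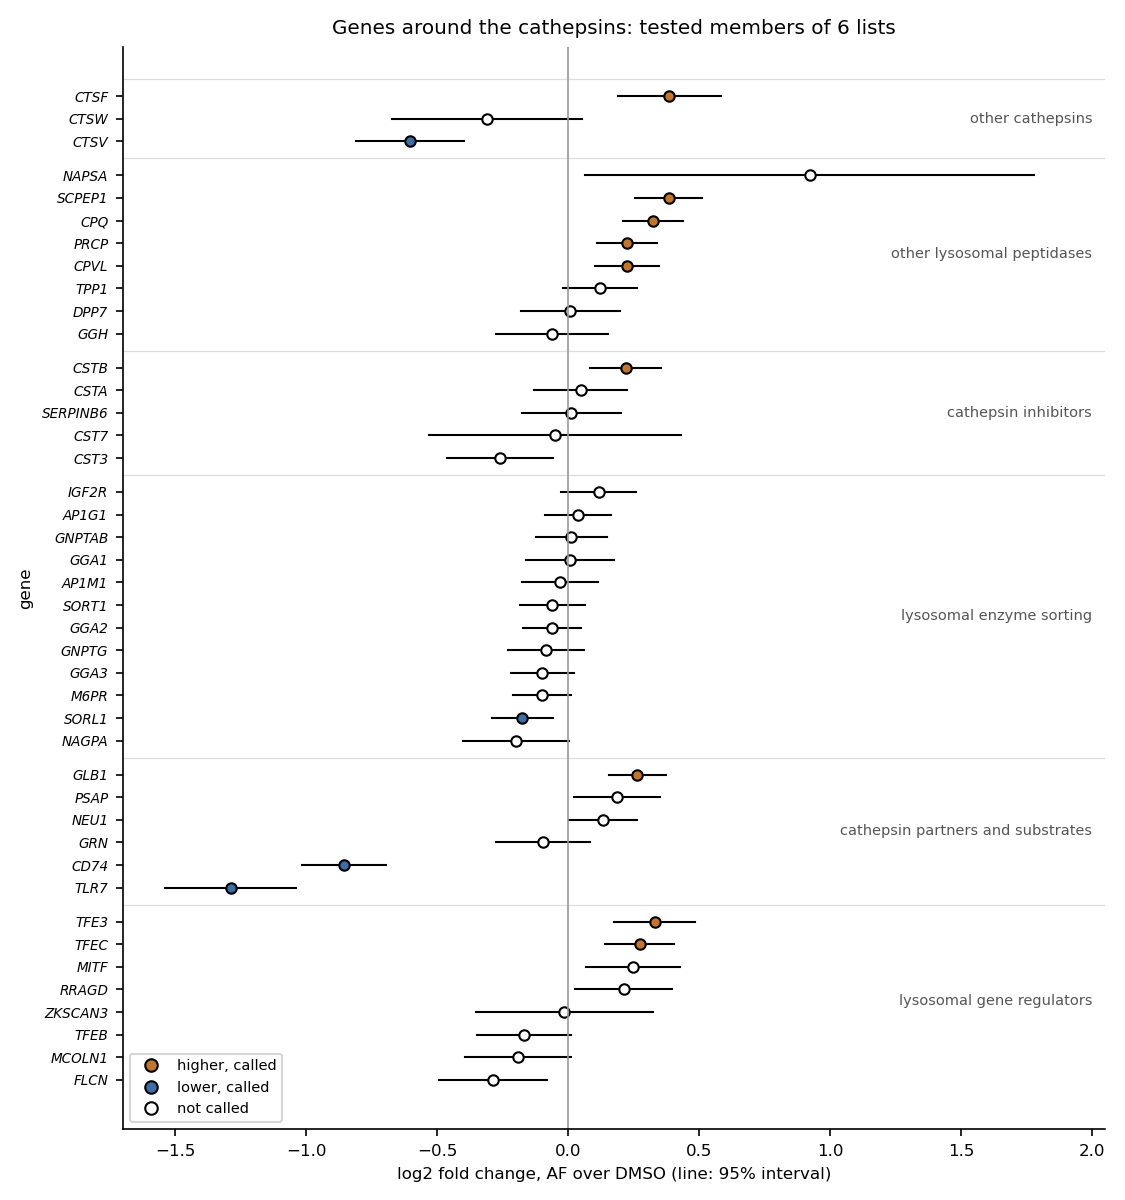
Log2 fold change with auranofin (x) and 95% interval for the tested genes of 6 lists around the cathepsins (y), filled where called. CTSV, SORL1, CD74 and TLR7 are called lower, and the 4 called peptidases lie between 0.22 and 0.38.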

How the data were processed

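Poly-A RNA of 4 DMSO and 4 auranofin libraries was sequenced. The authors deposited unnormalised whole-number counts for each gene. Per the submitters' processing notes, the tools were STAR 2.6.1d and featureCounts of Subread 1.6.3 and the build GRCh38. Library preparation was stranded, per the labels' protocols, but annotation, strand setting in counting and treatment of multi-mapped reads were not given in the sources used here. Columns were matched to samples by title.

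The deposited counts were fitted with edgeR 4.0.16 (R 4.3.3): TMM factors, filterByExpr defaults, a quasi-likelihood test with drug as the only term (6 residual degrees of freedom), Benjamini-Hochberg adjustment over 17535 genes and a threshold of 0.05. Intervals use the fit's moderated degrees of freedom. CPM use TMM-scaled library sizes, and lengths and positions come from GENCODE 29, which may differ from the authors' annotation. Alternatives included DESeq2 1.42.0, other scalings and filters, blocks, and libraries left out. No 2 libraries of a group agreed within sampling noise (chi-square per degree of freedom at least 2.95), so none was merged as a copy of another and each entered singly. This does not show that the libraries are independent units.

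Members and lists were chosen with earlier results of these data known. Named genes were all members, up to 3 called genes per list with the smallest p (or the 1 with the smallest p), and the 3 genes most like the member of smallest p. A planned comparison of protein sequences was not made. Since no molecular identifiers are mentioned, reads may be PCR copies. The result for 1 listed marker gene is not reported here.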

Additional observations from a re-analysis of the deposited data

Results flagged for a closer look

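CTSO in DMSO replicate 4 lay apart from its group, at 38.7 CPM against 31.8 to 32.9 in the other 3 DMSO libraries (the gap took 0.841 of the group's range, above Dixon's 95% critical value). AF replicate 4 was likewise the highest of its group, at 41.4 CPM against 33.5 to 35.2, without passing that value. This was 1 of 50 groups of values examined (25 genes), and chance flags about 1 in 20.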

How the results depend on the processing

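CTSD, CTSL and LGMN stayed higher when any one library was left out (adjusted p = 0.000444 to 0.0178, 0.00126 to 0.0236 and 0.00725 to 0.0313), and CTSB in 3 of 8 such fits. Members called higher numbered 0 with library totals alone and 0 with libraries 1 and 4 alone. All genes called numbered 2705 (1336 higher, 1369 lower), 883 with library totals alone (183 higher, 700 lower), 4188 with the replicate block, 212 with libraries 1 and 4 alone, 5354 with libraries 2 and 3 alone, and 1616 (without DMSO replicate 2) to 2964 (without AF replicate 4) with a library left out; it was 1648 without DMSO replicate 3 and 1660 without AF replicate 3. With library totals alone log2 fold changes turned to -0.076 (CTSA), -0.101 (CTSC), -0.044 (CTSK) and -0.037 (CTSO), and with libraries 2 and 3 alone to -0.009 (CTSA), -0.033 (CTSC) and 0.01 (CTSH). None of these genes was called in either. The cause of each change was not tested. The parts of the libraries also have fewer samples, and the effect of that was not tested either. Same-numbered libraries were not shown to be paired: deviations from group means correlated at 0.174, 0.347, 0.028 and 0.469. DMSO replicates 1, 2 and 4 correlated best with the same-numbered AF library, and DMSO replicate 3 with AF replicate 2 (0.105). Whether this reflects pairing was not tested. Members called under the block were 4 higher and 0 lower. Depth limits CTSK, at 99 to 231 counts.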
